A study of Mus musculus with 2 samples.

Results

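S and G2/M cell cycle genes were followed in single cells of mouse dorsal skin at postnatal day 3. The set was fixed by name and holds 43 of the 32285 genes in the matrices. It comprises 16 G2/M genes, 20 S genes of which 8 belong to origin licensing, 4 D and E cyclins, and Pclaf, Smc2 and Tuba1b. The 2 libraries were a control, labelled wild type, and a miR-200b induced library, and both carry the treatment label Dox. The labels name neither the transgene, its promoter and driver, nor the time of induction, nor the number, sex or strain of the animals. Epidermal and dermal cell suspensions were mixed at 30 to 70 before 3′ droplet capture. With 1 library per genotype there was no replicate, so animal, preparation and library cannot be told apart from the induction, and every interval given covers counting error only.

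A dividing cell licenses its replication origins by loading the Mcm helicase with Cdc6 and Cdt1, copies its DNA in S phase, and then condenses and segregates its chromosomes in G2 and mitosis. D and E cyclins drive the entry into S phase together with their kinases, whereas B cyclins with Cdk1 drive mitosis. S genes are classic targets of E2F factors, and G2/M genes are controlled through CCAAT boxes and through the cell cycle homology region, abbreviated CHR. In newborn skin, division is concentrated in basal epidermal cells, in growing hair follicles and in the dermis, and spinous and granular keratinocytes have left the cycle.

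The promoters of the members that fell most and least within the G2/M and S lists are shown to place these elements beside the values. They are RefSeq sequences of build GRCm38.p6, from 250 bases before to 50 bases after the start, written 5′ to 3′ along the gene. Capitals mark motifs found on either strand. They are the CCAAT box CCAAT, which reads ATTGG on the other strand, the CHR word TTTGAA, which reads TTCAAA there, the CHR word TTCGAA, which reads the same there, and the E2F words. The latter are TTTGGCGC, which reads GCGCCAAA on the other strand, TTTCCCGC, which reads GCGGGAAA, and TTTCGCGC, which reads GCGCGAAA.
Ccnb1, chr13:100786437-100786736, minus strand: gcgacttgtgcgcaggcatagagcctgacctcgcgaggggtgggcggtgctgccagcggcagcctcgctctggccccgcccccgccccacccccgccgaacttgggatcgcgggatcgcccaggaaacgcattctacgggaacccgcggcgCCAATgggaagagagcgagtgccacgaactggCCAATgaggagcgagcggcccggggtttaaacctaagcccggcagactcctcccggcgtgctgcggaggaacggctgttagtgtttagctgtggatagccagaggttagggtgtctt
Cdk1, chr10:69352863-69353162, minus strand: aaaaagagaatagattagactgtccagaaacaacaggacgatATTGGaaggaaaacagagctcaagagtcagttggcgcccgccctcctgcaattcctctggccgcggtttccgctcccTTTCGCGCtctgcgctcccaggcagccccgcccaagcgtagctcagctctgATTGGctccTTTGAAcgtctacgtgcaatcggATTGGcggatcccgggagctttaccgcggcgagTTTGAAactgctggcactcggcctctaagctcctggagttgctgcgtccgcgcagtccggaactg
Rrm2, chr12:24708004-24708303, plus strand: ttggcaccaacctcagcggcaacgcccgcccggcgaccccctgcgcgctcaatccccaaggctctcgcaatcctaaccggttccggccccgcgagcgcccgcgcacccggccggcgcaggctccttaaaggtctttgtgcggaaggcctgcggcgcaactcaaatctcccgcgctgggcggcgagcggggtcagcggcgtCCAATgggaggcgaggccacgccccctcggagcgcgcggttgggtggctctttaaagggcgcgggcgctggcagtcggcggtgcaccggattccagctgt
Cdt1, chr8:122567765-122568064, plus strand: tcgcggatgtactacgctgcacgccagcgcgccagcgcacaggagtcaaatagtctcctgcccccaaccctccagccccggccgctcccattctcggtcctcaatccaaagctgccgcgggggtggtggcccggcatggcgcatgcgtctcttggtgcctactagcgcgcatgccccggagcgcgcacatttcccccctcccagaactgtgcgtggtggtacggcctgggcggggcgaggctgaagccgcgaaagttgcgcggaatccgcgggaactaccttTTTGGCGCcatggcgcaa
Ccnb1, which encodes cyclin B1, held CCAAT boxes that began at -99 and -67 relative to the start. Cdk1, the mitotic kinase, held 3 CCAAT boxes, CHR letters that began at -71 and -15, and an E2F word at -131. Rrm2, the small subunit of ribonucleotide reductase, held 1 CCAAT box at -50, and Cdt1, a licensing factor, held 1 E2F word that began at position 33 after the start. A promoter entry was matched for 36 of the 43 members. Of the 14 G2/M promoters, 10 held CHR letters (71.4%) and 12 a CCAAT box (85.7%), and of the 18 S promoters, 9 held an E2F word (50%) and 11 a CCAAT box (61.1%). Over 27025 genes with a promoter the shares were 21.7% for CHR letters, 41.1% for the CCAAT box and 2.12% for an E2F word. CHR letters stood in 2 of 18 S promoters and an E2F word in 1 of 14 G2/M promoters, while the CCAAT box was more frequent than over all genes in both lists. Such letters are no evidence of a bound factor.

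The induced microRNA, miR-200b-3p, lies at chr4:156055685-156055706 on the minus strand. Its RefSeq sequence is given with the seed, bases 2 to 8, in capitals.
mmu-miR-200b-3p: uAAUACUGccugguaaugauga
The 7-base complement of that seed, CAGTATT, was sought in the longest GENCODE M21 3′ UTR of each gene. It was present in 6 of the 43 members, 13.95%, and in 2792 of 21037 protein-coding genes with a 3′ UTR, 13.3%. The sites are shown because the largest falls in the epithelium, as plain ratios of levels, turned out to lie in Smc2, Rrm2 and Tuba1b. Ccnb1, Mcm4 and Rrm1 ranked among members without a match. Capitals mark the match, and in Rrm2, Smc2 and Tuba1b the next base is the A that completes the 8-base match.
Ccnb1: ggttcattttatcaaCAGTATTcctat
Mcm4: aaggagtctgaaaggCAGTATTccact
Rrm1: ctcatacacataatgCAGTATTtgcac
Rrm2: tttttttttaatgctCAGTATTatctt
Smc2: tttaatttctaagtaCAGTATTaatga
Tuba1b: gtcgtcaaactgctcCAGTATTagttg
Smc2, a condensin subunit, had 2 matches in 1605 bases of 3′ UTR, and Tuba1b, an alpha-tubulin, had 1 in 157 bases. Ccnb1, Mcm4, Rrm1 and Rrm2 had 1 match each.

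The libraries held 9072 control and 9114 induced barcodes. Of these, 5178 and 5258 passed the filters of at least 1000 UMIs, at least 500 genes and under 15% mitochondrial UMIs, at a median depth of 14748 and 18019.5 UMIs. The epithelium gave 4221 and 4404 of these cells, which were deeper in the induced library, at medians of 16119 and 21102.5 UMIs. Gm13648, a transcript that spans the Mir200b locus, went from 2.34 to 528 CPM in epithelial cells and from 0.169 to 66.8 CPM in fibroblast-like cells, where the control value is 1 UMI. The epithelium held 233 and 3 sebaceous-like, 244 and 386 spinous-like, and 23 and 146 granular-like cells, and the part of this makeup in the values over all epithelial cells was not tested. In the removed barcodes the summed G2/M level was 1037 CPM in the control and 577 CPM in the induced library.

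Over all epithelial cells nearly the whole set was lower in the induced library. Levels are CPM, the UMIs of a gene per 1000000 UMIs of the summed cells, and a gene counts as changed when CPM plus 5 differed at least 1.5-fold and it had at least 50 UMIs over both libraries. All 16 G2/M genes and 18 of the 20 S genes were lower, against 8.91% of the 14570 genes tested, and no member was higher, against 5.61%. At 2-fold, 14 of the 43 members were lower, against 2.6% of all genes. Added up, the G2/M genes had 1203 CPM in the control and 630.3 CPM in the induced library (log2 ratio -0.93, -0.95 to -0.92), and the S genes 1469.6 and 704 CPM (-1.06, -1.07 to -1.05). The median log2 ratio of CPM plus 5 was -0.81 for the G2/M list and -0.94 for the S list, beside -0.03 for the median gene.

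**Figure D1:**
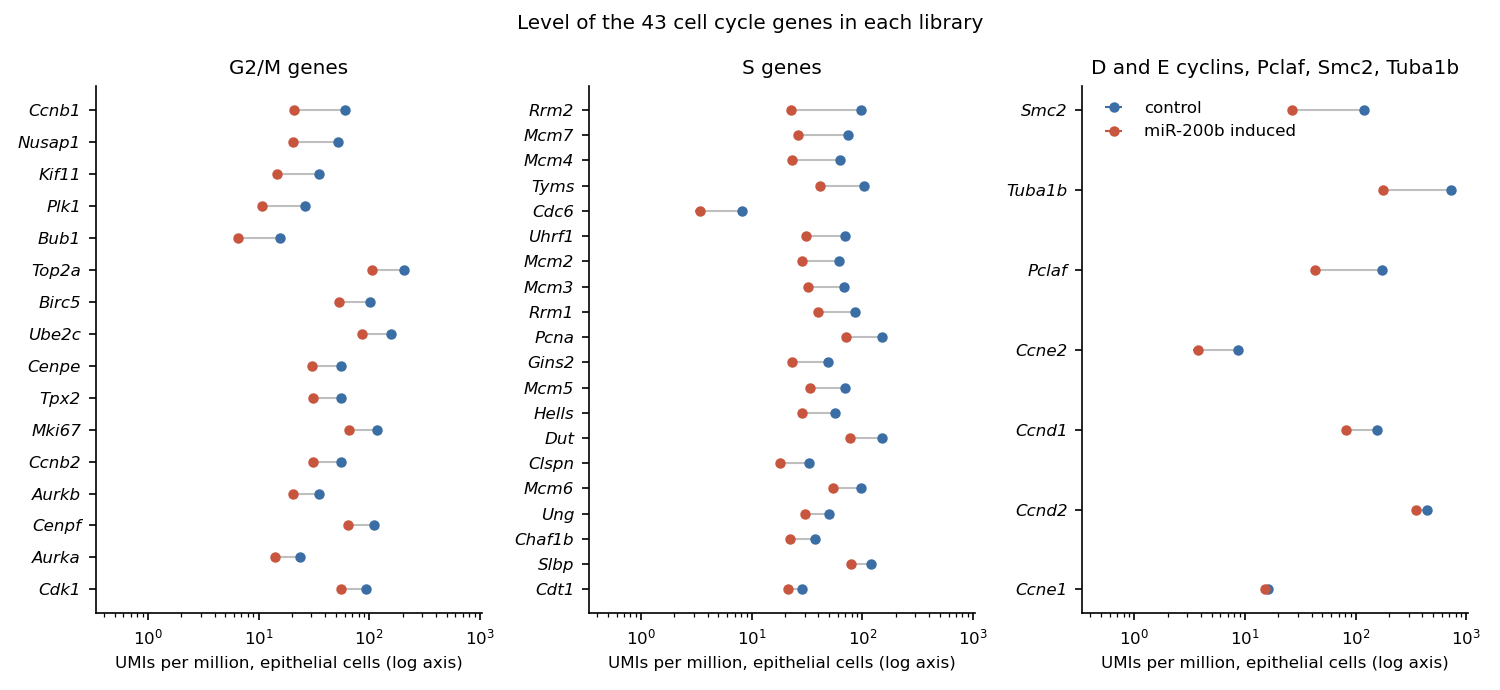
CPM in epithelial cells (log axis) for each gene in the control and the induced library, with exact 95% Poisson intervals that are mostly narrower than the points. Genes are ordered by the size of their fall, and Ccne1 is the only gene whose intervals overlap between the libraries.

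Among the G2/M genes, the falls ranged from 1.67-fold to 2.89-fold. Top2a, the topoisomerase that untangles sister chromatids, had the most UMIs of the list and went from 208 to 105 CPM (log2 ratio -0.98, -1.02 to -0.95). Ube2c, the ubiquitin-conjugating enzyme of the anaphase-promoting complex, went from 157 to 85.2 CPM (-0.88, -0.92 to -0.85). Mki67, the coat protein of mitotic chromosomes, went from 117 to 66.0 CPM (-0.83, -0.87 to -0.79). These 3 fell by similar amounts and the libraries did not overlap for any of them. The largest fall was that of Ccnb1, from 60.3 to 20.9 CPM (-1.53, -1.60 to -1.46), followed by the microtubule-binding protein Nusap1, from 52.5 to 20.5 CPM (-1.35, -1.43 to -1.28). Cdk1, the kinase partner of cyclin B1, fell least, from 92.6 to 55.5 CPM (-0.74, -0.79 to -0.69), next to the mitotic kinase Aurka, from 23.6 to 13.99 CPM (-0.75, -0.85 to -0.65). Cyclin B1 and its kinase thus fell by unequal amounts, and their intervals did not overlap. Ccnb1 made up 5.0% of the list's UMIs in the control and 3.3% in the induced library, whereas the share of Cdk1 went from 7.7% to 8.8%.

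The licensing genes were lower in 7 of 8 cases. Mcm6, Mcm5 and Mcm3, helicase subunits with the most UMIs of the group, went from 96.7 to 53.7 CPM (-0.85, -0.90 to -0.80), from 69.8 to 33.6 CPM (-1.05, -1.11 to -0.99) and from 68.6 to 32.0 CPM (-1.10, -1.16 to -1.04). Mcm7 and Mcm4, subunits of the same ring, fell further, from 74.0 to 26.1 CPM (-1.50, -1.57 to -1.44) and from 62.1 to 22.9 CPM (-1.44, -1.51 to -1.37). Within the hexamer the log2 ratios therefore ran from -0.85 to -1.50. Cdc6, the loader of the ring, went from 8.08 to 3.40 CPM (-1.25, -1.44 to -1.06). Its partner Cdt1 was the exception of the group, at 28.3 and 21.1 CPM (-0.42, -0.50 to -0.34), which stayed within 1.5-fold.

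Among the other S genes, 11 of 12 were lower. Dut, which clears dUTP, went from 149.9 to 77.4 CPM (-0.95, -0.99 to -0.91), and Pcna, the sliding clamp, from 150.3 to 70.7 CPM (-1.09, -1.13 to -1.05). Rrm2 fell most of all S genes, from 97.1 to 22.7 CPM (-2.10, -2.16 to -2.03), or 4.28-fold. Its partner subunit Rrm1 went from 85.1 to 40.0 CPM (-1.09, -1.14 to -1.03), so that the subunits of ribonucleotide reductase fell by unequal amounts. Tyms, thymidylate synthase, went from 104 to 41.1 CPM (-1.34, -1.39 to -1.29). Slbp, which binds histone mRNA, stood at 119 and 78.5 CPM (-0.60, -0.65 to -0.56) and stayed inside the limit, which is set on CPM plus 5, and the smallest fall past it was that of the chromatin assembly subunit Chaf1b, from 37.1 to 22.2 CPM (-0.74, -0.82 to -0.66).

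Pclaf, Smc2 and Tuba1b fell by about the same amount as Rrm2. Pclaf, the PCNA-associated factor, went from 172 to 43.04 CPM (-2.001, -2.05 to -1.95), Smc2 from 119 to 26.6 CPM (-2.15, -2.21 to -2.09) and Tuba1b from 723 to 177 CPM (-2.03, -2.05 to -2.004). All 3 had been noted as falls in hair follicle cells of these libraries, so their direction here is no separate observation. The closely related tubulins Tuba1a and Tuba1c did not pass the limit, at 116 and 148 CPM (0.36, 0.32 to 0.40) and at 127 and 136 CPM (0.10, 0.06 to 0.14). Reads in the parts that these paralogs share could be assigned to either or dropped, so their levels are less certain than those of other members, and both were named after their values had been seen.

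The D and E cyclins split. Ccnd1, cyclin D1, went from 155 to 81.2 CPM (-0.93, -0.97 to -0.89), and Ccne2, cyclin E2, from 8.60 to 3.74 CPM (-1.20, -1.38 to -1.02). Ccnd2, cyclin D2, stayed within 1.5-fold at 443.9 and 351.5 CPM (-0.34, -0.36 to -0.32). Ccne1, cyclin E1, stood at 16.1 and 15.2 CPM, with an interval that spanned 0 (-0.20 to 0.01). The 4 cyclins together thus had 2 lower members, and within each pair 1 gene fell and the other did not pass the limit.

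The pattern in single cell classes was less uniform than in the pooled epithelium. Classes were rebuilt by clustering without the cell cycle genes and named from marker lists, and "-like" is meant with each name. Most epithelial clusters came from 1 library: basal epidermal-like cells lay in cluster E1 in the control and in E0 and E13 in the induced library, spinous-like cells in E16 and E8, outer root sheath-like cells in E4, E7, E6 and E22 against E5, E10, E11 and E6, and upper follicle-like cells in E2, E20 and E19 against E3 and E19. Fibroblast-like cells lay in N1 in the control and in N1 and N26 in the induced library, and melanocyte-like and endothelial-like cells in N14 and N24 in both. Dermal papilla-like cells lay in N23 in both, with 53 and 92 cells, and mural-like cells in N25 (55 and 49 cells) and N30 (1 and 24 cells). Another 939 control and 840 induced epithelial cells had no class name.

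In basal epidermal-like cells (581 and 1150 cells) 9 of 16 G2/M genes and 10 of 20 S genes were lower, against 8.03% of all genes tested there. Summed G2/M levels went from 1085 to 681 CPM (log2 ratio -0.67) and summed S levels from 1499 to 919 CPM (-0.71). Pcna went from 167 to 85.3 CPM (-0.97) and Mcm7 from 73.7 to 33.3 CPM (-1.15), whereas Cdt1 stood at 32.6 and 28.6 CPM (-0.19) and Ube2c at 134 and 101 CPM (-0.41). None of the 4 cyclins passed the limit, with Ccnd1 at 71.2 and 62.3 CPM and Ccnd2 at 537 and 597 CPM. In these cells the replication genes were thus lower by a smaller amount than in the pooled epithelium, at D cyclin levels that differed little.

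In outer root sheath-like cells (1411 and 1284 cells) 19 of 20 S genes but 7 of 16 G2/M genes were lower, against 8.46% of all genes. Summed S levels went from 2285 to 1116 CPM (-1.03, -1.06 to -1.01) and summed G2/M levels from 1884 to 1280.5 CPM (-0.56, -0.58 to -0.54). Mki67 stood at 189.5 and 131 CPM (-0.53) and Cdk1 at 141 and 109 CPM (-0.38), both within 1.5-fold, while Pcna went from 212 to 93.7 CPM (-1.18) and Uhrf1, which maintains DNA methylation at the fork, from 126 to 55.7 CPM (-1.18). Cluster E6, with few G2/M cells, made up a larger part of the control than of the induced cells of this class, as given below with the shares. Its part in these levels and counts was not tested. In upper follicle-like cells (790 and 595 cells) the lists moved alike, with 12 of 16 G2/M and 12 of 20 S genes lower against 8.72% of all genes, and summed log2 ratios of -0.72 and -0.65. Cdt1 was level there, at 28.7 and 28.6 CPM (-0.01, -0.22 to 0.20).

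Spinous-like cells (244 and 386 cells) had low levels in both libraries. All 12 G2/M genes with enough UMIs and 16 of 19 S genes were lower, against 13.0% of all genes. At these levels a gene could pass the UMI minimum through the control alone and then had to be lower, so the counts are no support of their own. The summed G2/M level went from 152 to 29.8 CPM (-2.36, -2.51 to -2.20). Mki67 had 107 and 39 UMIs there, or 12.5 and 2.37 CPM. Granular-like cells, with 23 control cells, were too few to compare. Their summed G2/M level was 16.4 CPM (28 UMIs) and 68.3 CPM (574 UMIs), the reverse of the order seen in the other epithelial classes, and Mki67 had 1 and 63 UMIs.

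Summed over all non-epithelial cells the log2 ratios were -2.07 for G2/M and -1.40 for S. The makeup of this pool differed between the libraries, with 555 and 302 fibroblast-like, 84 and 255 melanocyte-like and 53 and 92 dermal papilla-like cells, and its part in these values was not tested. In fibroblast-like cells (555 and 302 cells) 16 of 16 G2/M and 18 of 19 S genes were lower, against 12.3% of all genes, and the summed G2/M level went from 758 to 138 CPM (-2.46, -2.64 to -2.28). Top2a went from 107 to 17.6 CPM (-2.60), while Cdt1 stood at 9.28 and 8.29 CPM (-0.16, -1.04 to 0.64). In melanocyte-like cells (84 and 255 cells) 11 of 11 G2/M and 18 of 18 S genes were lower, against 6.65% of all genes, and in endothelial-like cells (81 and 77 cells) 12 of 12 and 19 of 19, against 18.1%. Mural-like cells (56 and 73 cells) had 15 of 15 and 14 of 14 lower, against 24.8%. The limit given for the spinous-like counts holds for these small classes as well. Pclaf, for example, had 312 control and 1 induced UMI in endothelial-like cells. The summed G2/M log2 ratios of these 3 classes were -3.27 (-3.47 to -3.08), -3.76 (-4.06 to -3.48) and -2.27 (-2.43 to -2.13). Median depths were lower in the induced library in each of them, at 7760 against 11043.5, 9854 against 14425 and 6463 against 12156 UMIs, and at 6196 against 9754 UMIs in fibroblast-like cells. Dermal papilla-like cells had 36 and 19 G2/M UMIs in all, too few for any gene of the list, or 96.4 and 80.9 CPM, within 1.5-fold (-0.25, -1.14 to 0.59). Their S genes had 557 and 289 CPM (-0.94, -1.36 to -0.54). The S and G2/M lists together were lower by 1.5-fold in 9 of 9 compared classes. The G2/M list alone stayed within 1.5-fold in dermal papilla-like and in outer root sheath-like cells, in both of which the S list was lower by 1.5-fold. Schwann-like (40 and 22 cells) and myeloid-like cells (36 and 26 cells) were too few to be compared; their summed G2/M levels were 1144 and 1151 CPM, and 1503 and 882 CPM.

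**Figure D2:**
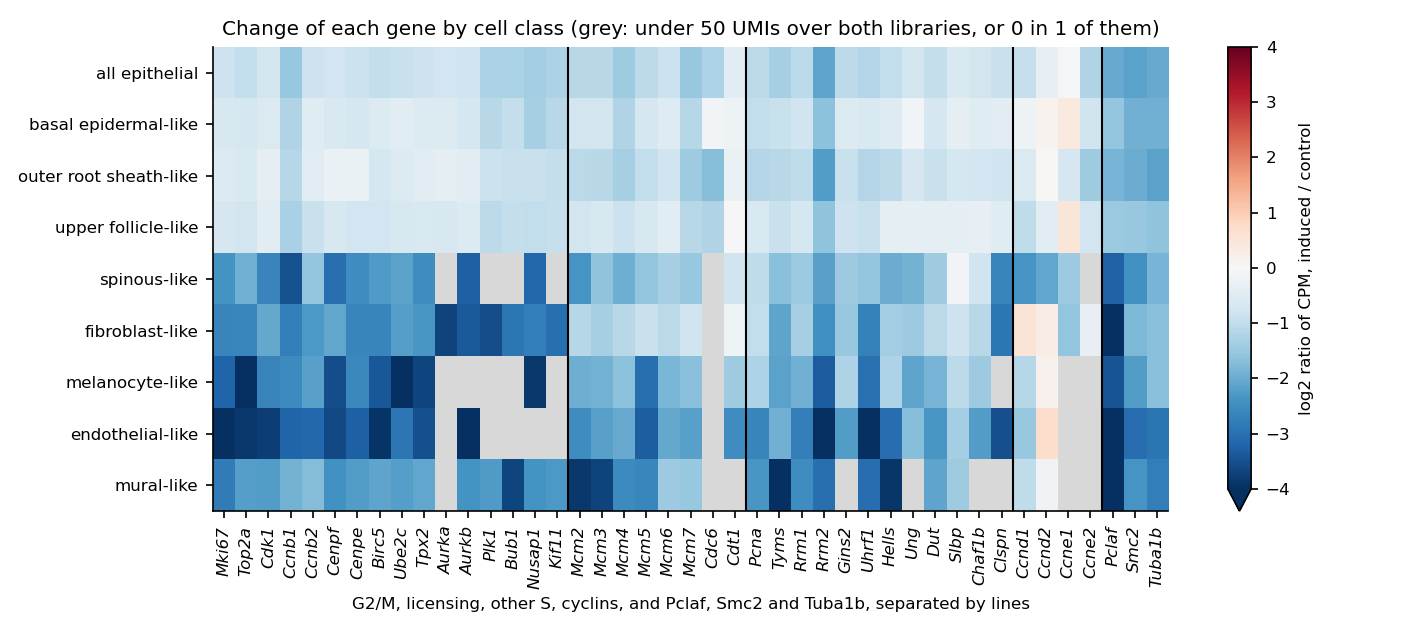
Log2 ratio of CPM, induced over control, for each gene (columns) in all epithelial cells and in 8 cell classes (rows), with lines between the gene groups. Grey marks genes with under 50 UMIs over both libraries or with 0 in 1 of them, such as Nusap1 in endothelial-like cells (89 and 0 UMIs). Values below -4 have the darkest blue, as for Pclaf in endothelial-like cells, and the only positive values lie among the D and E cyclins.

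Across the 9 compared classes Tuba1b had log2 ratios from -2.92 in endothelial-like to -1.60 in upper follicle-like cells. Cdt1 was lower in 2 of 7 classes, and no cyclin was lower in every class. Only Ccnd2 was higher in any compared class.

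The D cyclins were called in opposite directions in endothelial-like cells alone of the compared classes, and their difference was not tested. In endothelial-like cells Ccnd1 went from 490.5 to 172 CPM (-1.51, -1.75 to -1.28) and Ccnd2 from 106 to 173 CPM (0.70, 0.39 to 1.01), a rise past 1.5-fold against 11.4% of genes that rose in that class. Ccnd1 also fell in melanocyte-like cells, from 91.0 to 40.8 CPM (-1.16, -1.58 to -0.73), and in mural-like cells, from 294.7 to 147 CPM (-1.001, -1.38 to -0.63), where Ccnd2 stood at 268 and 242 CPM (-0.15, -0.47 to 0.17). In fibroblast-like cells neither passed the limit, at 100.4 and 148 CPM for Ccnd1 (0.56, 0.36 to 0.76) and 206 and 251 CPM for Ccnd2 (0.28, 0.13 to 0.43), although G2/M genes were far lower there. In the epithelium Ccnd1 fell in upper follicle-like cells, from 193 to 94.4 CPM (-1.03), and in spinous-like cells, from 48.1 to 9.41 CPM (-2.35). Ccnd2 fell in spinous-like cells as well, from 105 to 25 CPM (-2.07), and stood at 357 and 368 CPM in outer root sheath-like cells (0.04). Ccne1 was lower in fibroblast-like cells alone of the 5 classes where it had enough UMIs (log2 ratio -1.57). It was within 1.5-fold in basal epidermal-like cells, at 20.97 and 27.6 CPM (0.40, 0.19 to 0.61), and in upper follicle-like cells, at 15.4 and 21.4 CPM (0.47, 0.21 to 0.74), while Ccne2 fell in outer root sheath-like cells, from 14.1 to 5.24 CPM (-1.43). The E cyclins thus had ratios of opposite sign in basal epidermal-like cells, where Ccne2 stood at 9.51 and 5.43 CPM (-0.81, -1.17 to -0.44).

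**Figure D3:**
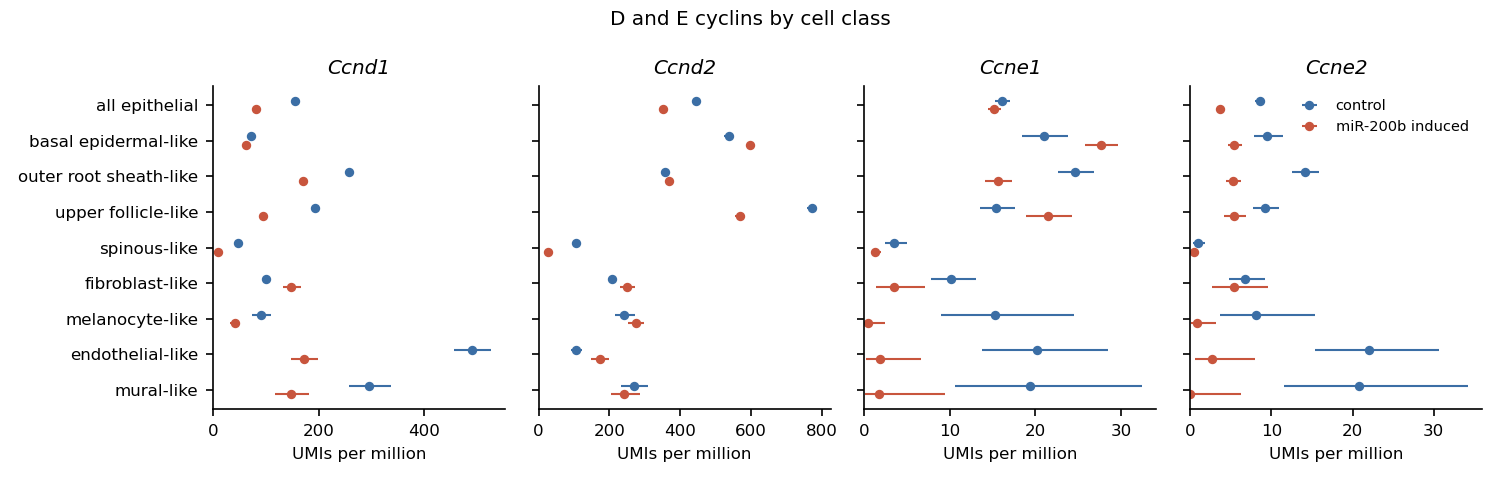
CPM of Ccnd1, Ccnd2, Ccne1 and Ccne2 in each cell class and library, with exact 95% Poisson intervals and an axis from 0 in each panel. Ccnd1 points of the induced library lie left of the control in most classes but right of it in fibroblast-like cells, and Ccnd2 points lie right of the control in endothelial-like cells.

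To compare shares of cells at one depth, each cell was thinned to 2000 UMIs, which left out 84 shallower control and 406 induced cells, and cells with at least 2 UMIs of a list were counted. In the epithelium the share of G2/M cells was 22.6% in the control (936 of 4150 cells, 21.3 to 23.9) and 14.7% in the induced library (602 of 4094, 13.6 to 15.8). The share of S cells was 48.5% (47.0 to 50.02) and 28.8% (27.4 to 30.2). Without thinning the shares were 42.5% and 36.6% for G2/M and 92.4% and 84.8% for S. In granular-like cells, given for comparison because granular keratinocytes are known to have left the cycle, 0 of 21 control and 1 of 145 induced cells passed for G2/M, and 0 of 21 and 2 of 145 for S, at median depths of 70378 and 58043.5 UMIs before thinning. The class was not free of the genes, as in the induced library Cenpf had 104 UMIs in 3.42% and Mki67 63 UMIs in 6.85% of the 146 unthinned cells, and its values are no measured background. A count of 0 of 21 allows a share of up to 14.3% when 3 cells are taken as the limit, and the exact 95% interval reaches 16.1%. Sebaceous-like cells of the control, with 231 cells, gave 1.30% for G2/M and 15.6% for S.

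By class, the share of G2/M cells in basal epidermal-like cells went from 17.6% to 15.2%, with an interval of the log2 ratio of shares that spanned 0 (-0.53 to 0.11), although their share of S cells went from 50.3% to 34.3% (-0.72 to -0.39). Outer root sheath-like cells went from 28.4% to 22.0% for G2/M (-0.56 to -0.18) and from 58.8% to 37.2% for S (-0.78 to -0.54). Cluster E6, with few G2/M cells, made up 369 of the 1402 control but 67 of the 1278 induced cells of this class, and without it, an alternative added after the data had been seen, the G2/M shares were 36.2% and 23.1% (log2 ratio -0.65, -0.84 to -0.46) and the S shares 68.2% and 38.4%. Upper follicle-like cells went from 24.8% to 15.2% and from 44.1% to 34.5%. Without thinning, the G2/M shares went the other way in the first 2 of these classes, at 38.4% and 41.2% in basal epidermal-like and 46.0% and 48.0% in outer root sheath-like cells, and in the same direction in upper follicle-like cells, at 42.5% and 34.5%. Induced cells were deeper in each of these classes, at control and induced medians of 18761 and 25133.5, 11992 and 16132, and 15806.5 and 18485 UMIs. The part of depth in these shares was not tested. Spinous-like cells stood at 3.29% for G2/M in the control and 0.779% in the induced library (3 of 385 cells). Among the non-epithelial classes the share of G2/M cells went from 9.84% to 1.87% in fibroblast-like, from 14.3% to 1.99% in melanocyte-like, from 34.6% to 4.17% in endothelial-like and from 43.6% to 4.17% in mural-like cells. The induced values rest on 5, 5, 3 and 3 cells, and without thinning the shares were 19.5% and 4.30%, 29.8% and 8.63%, 53.1% and 16.9%, and 58.9% and 15.1%. After thinning no dermal papilla-like cell had 2 G2/M UMIs, with 0 of 52 and 0 of 43 cells, which allows up to 5.77% and 6.98% by the limit of 3 cells and up to 6.85% and 8.22% by the exact 95% intervals. Thinning kept 43 of the 92 induced cells, and without it the shares were 5.66% and 3.26%, so the counts of 0 describe the thinned cells only.

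**Figure D4:**
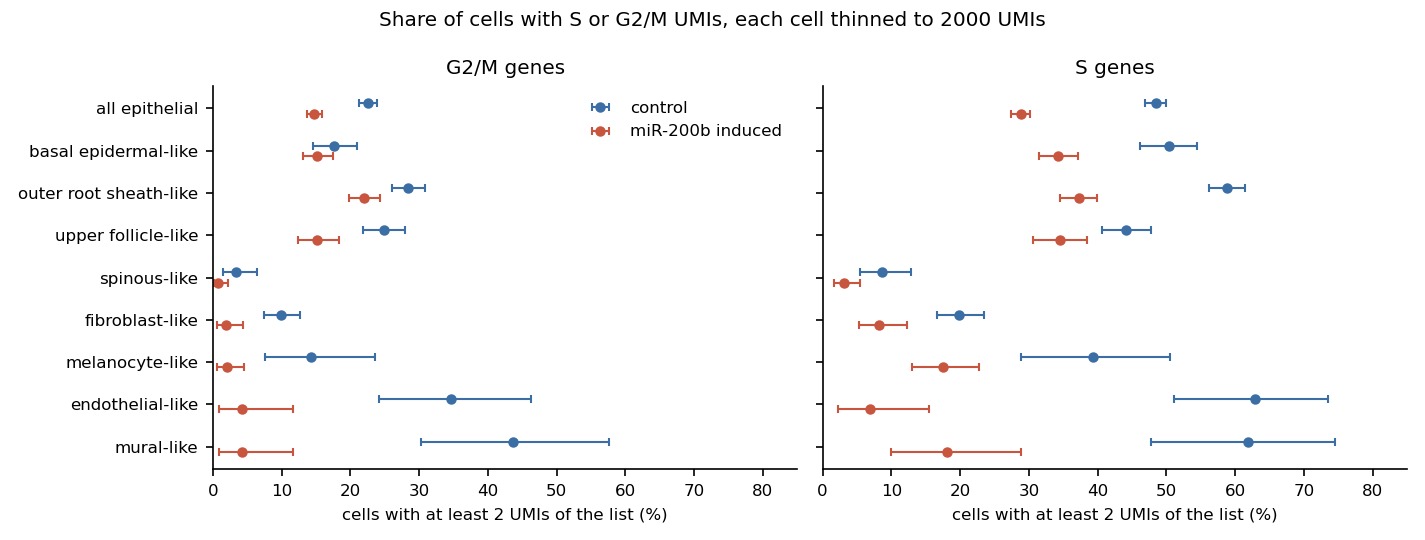
Share of cells (%) with at least 2 UMIs of the G2/M or of the S list after thinning to 2000 UMIs, by class and library, with exact 95% binomial intervals. The induced points lie left of the control points in each row of both panels, and the G2/M intervals overlap in basal epidermal-like and spinous-like cells.

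S and G2/M UMIs were next counted together in each thinned epithelial cell. Cells with S UMIs alone made up 31.3% of the control and 20.4% of the induced library, and cells with both lists 17.2% and 8.38%. Cells with G2/M UMIs alone made up 5.33% (4.66 to 6.05) and 6.33% (5.60 to 7.12), with overlapping intervals, and 46.2% and 64.9% of cells had neither. The ratio of the G2/M share to the S share was 0.465 and 0.511, a log2 difference of 0.13 that turned to -0.14 with cells thinned to 5000 UMIs, so its direction depended on the depth. A G2/M cell carried a mean of 8.33 and 7.41 G2/M UMIs, and an S cell 5.38 and 4.13 S UMIs, but in upper follicle-like cells the G2/M mean was 8.43 and 8.81. In outer root sheath-like cells the state with G2/M UMIs alone made up 5.28% and 8.998%, in basal epidermal-like cells 4.48% and 7.21%, and in upper follicle-like cells 7.38% and 5.91%. Members of 1 list were found in the same cell more often than their separate frequencies give, with a median of 4.73 times in the control and 6.85 times in the induced library over 120 pairs of G2/M genes, and 2.09 and 2.63 times over 190 pairs of S genes. For the 320 pairs of a G2/M with an S gene the medians were 1.41 and 1.64 times. These cells share libraries and depth, so the ratios describe the lists and carry no test. The largest ratio possible grows as genes are found in fewer cells, and the libraries differed in that, so their ratios are not compared with each other.

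The genes outside the 2 lists were also read within those states. Ccne1 was highest in cells with both lists, at 42.4 CPM in the control and 68.0 CPM in the induced library, and lowest in cells with neither, at 3.11 and 3.23 CPM. In cells with S UMIs alone its level was 20.2 CPM (18.4 to 22.2) and 32.6 CPM (30.1 to 35.2), a higher level in the induced library. Ccnd2 stood at 633 and 631 CPM in the same cells. Tuba1b was lower in each state, from 240 to 92.9 CPM in cells with neither list, from 640 to 220 CPM with S alone and from 1264 to 325 CPM with G2/M alone. Smc2 went from 85.3 to 32.3 CPM with S alone and from 260 to 83.5 CPM with G2/M alone, and Pclaf from 111 to 39.2 CPM and from 255 to 95.7 CPM. For these 3 genes the difference between the libraries was therefore present within cells of the same state.

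The 4 epithelial clusters that held at least 50 cells of both libraries allow the comparison within one cluster. Cluster E23, led by the hair keratins Krt33a and Krt35 and without a class name, had the highest shares of the 4, 57.7% of 71 control and 39.7% of 58 induced cells for G2/M and 84.5% and 53.4% for S. In E18, led by Pinlyp and the root sheath keratins Krt25 and Krt75, the G2/M share went from 19.2% to 8.94% and the S share from 25.3% to 8.13%, at median depths of 43143 and 16848 UMIs. E19, led by Cst6 and Sprr1a, went from 17.1% to 2.44% (18 of 105 and 2 of 82 cells) and from 22.9% to 3.66% (24 and 3 cells). E6, led by Sfrp1 and Nppc, went from 6.50% to 1.49% (24 of 369 and 1 of 67 cells) and from 32.8% to 16.4% (121 and 11 cells). In each of these 4 clusters both shares were lower in the induced library, but the exact 95% intervals of the G2/M shares overlapped in E23, E18 and E6. The fibroblast-like cluster N1, the melanocyte-like N14 and the endothelial-like N24 also held at least 50 cells of both, with G2/M shares of 9.94% and 1.55%, 14.3% and 1.99%, and 36.1% and 4.62%. The choice of the epithelial clusters was made after the data had been seen.

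Ordered by log2 ratio, Smc2, Rrm2 and Tuba1b, with 8-base matches, were the 3 lowest of the 43 members, at -2.15, -2.10 and -2.03, which is next to Pclaf at -2.001. Ccnb1 was 5th at -1.53, Mcm4 was 7th at -1.44 and Rrm1 was 18th at -1.09. Pclaf and Mcm7, without a match, were the 4th and the 6th. With CPM plus 5, Rrm2 came after Pclaf in the pooled epithelium, both at -1.88. The same 3 genes with 8-base matches were also the 3 lowest in basal epidermal-like, outer root sheath-like and upper follicle-like cells. In spinous-like cells they were not: Smc2 was 10th at -2.42, Rrm2 15th at -2.17 and Tuba1b 22nd at -1.86 of 37 members with enough UMIs. Nor were they in fibroblast-like cells, where Rrm2 was 15th at -2.44, Smc2 22nd at -1.80 and Tuba1b 23rd at -1.69 of 42 members with enough UMIs.

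The same order was present over all genes tested in the epithelium. Of 497 genes with an 8-base match 23.1% were lower by 1.5-fold, of 1485 with a 7-base match 16.2%, and of 11184 without a match 8.20%. In fibroblast-like cells the shares were 9.69% of 413, 10.4% of 1213 and 12.9% of 7950 genes, and in melanocyte-like cells 6.42%, 6.13% and 6.78%. Among the 37 members without a match, 33 were lower in the epithelium as well, with a median log2 ratio of CPM plus 5 of -0.84, so members without a match were lower too. That genes with the match were lower in epithelial cells was known of these libraries, and the members' matches were looked for after their values had been seen, so the order is a description and no separate support.

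**Figure D5:**
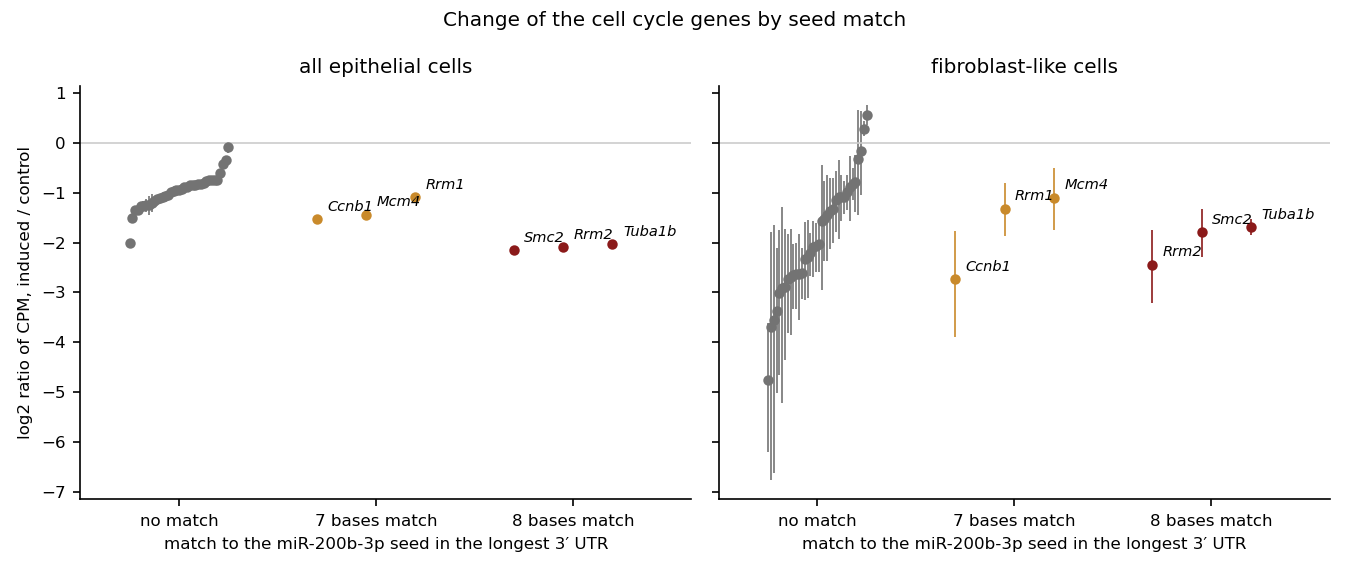
Log2 ratio of CPM with its exact 95% interval for each gene, by match of the longest 3′ UTR to the miR-200b-3p seed, in all epithelial cells (left) and in fibroblast-like cells (right). In epithelial cells the 3 genes with an 8-base match lie between -2.15 and -2.03, below every gene of the other columns, and in fibroblast-like cells they lie inside the range of the genes without a match.

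Other cell cycle genes were taken from 10 lists that hold no member. Of 133 genes with enough UMIs in epithelial cells, 63 were lower and 2 higher by 1.5-fold, against 8.91% and 5.61% of all genes. By list, 14 of 22 genes of condensin, the spindle and cytokinesis were lower, 10 of 15 of the kinetochore and checkpoint, and 8 of 10 chromatin genes of dividing cells. Stmn1, which destabilises microtubules, went from 461 to 104 CPM (-2.15, -2.18 to -2.12), Dek, a chromatin protein with a 7-base seed match, from 331 to 90.4 CPM (-1.87, -1.91 to -1.84), and Spc24 of the outer kinetochore from 70.9 to 27.8 CPM (-1.35, -1.42 to -1.29). Ncapg, a condensin subunit like Smc2, went from 25.8 to 9.34 CPM (-1.46, -1.57 to -1.36). At the replication fork 13 of 25 genes were lower, among them the polymerase subunits Pold1, from 17.6 to 6.20 CPM (-1.50), and Pole2, from 23.9 to 10.0 CPM (-1.25).

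Of the regulators, 1 of 13 pocket protein and E2F genes was lower, namely the repressor E2f7, from 8.57 to 4.01 CPM (-1.09, -1.27 to -0.92). None of 7 genes of the MuvB, B-Myb and FoxM1 group passed the limit. With 8.91% of all genes lower, neither count sets these groups apart from all genes. Their median log2 ratios of CPM plus 5 were -0.16 and -0.36, beside -0.03 for the median gene. Foxm1, at 14.7 and 8.83 CPM, and Rbl1, at 20.3 and 13.2 CPM, stayed inside a limit that is set on CPM plus 5. Origin factors beyond the members were lower in 4 of 15 cases, among them Cdc7, the kinase that fires origins, from 14.5 to 5.25 CPM (-1.46), and Gmnn, the inhibitor of Cdt1, from 68.0 to 32.4 CPM (-1.07). Anaphase-promoting complex genes and controls of Cdk1 were lower in 5 of 12 cases, among them Cks1b, a small Cdk subunit, from 122 to 50.3 CPM (-1.27). Of the other cyclins and kinases, 4 of 8 were lower, with Ccna2, cyclin A2, from 57.8 to 28.9 CPM (-1.002) and Cdk4 from 322 to 199.8 CPM (-0.69). Ccnd3, cyclin D3, was higher, from 99.2 to 205 CPM (1.05, 1.01 to 1.08). Among 6 inhibitors of these kinases with enough UMIs, Cdkn2b was higher, from 3.8 to 13.95 CPM (1.88, 1.70 to 2.05), and 4 were lower, among them Cdkn1c, from 14.96 to 3.84 CPM (-1.96), and Cdkn2c, from 23.4 to 10.2 CPM (-1.21). Cdkn1a, the inhibitor p21, also named after its value had been seen, stood within the limit at 229 and 254.5 CPM (0.15, 0.12 to 0.18).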

How the data were processed

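Single-cell RNA was measured in 1 control and 1 miR-200b induced library of dorsal skin. The deposited matrices hold raw UMI counts per gene and barcode, made by the authors with Cell Ranger 6.0.0 on mm10, per the submitters' processing notes. Other upstream steps are not given in the sources used here. Barcodes with at least 1000 UMIs, at least 500 genes and under 15% mitochondrial UMIs were kept.

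Cells were clustered with scanpy 1.11.5 and leidenalg 0.10.2 (2000 variable genes, 30 components, 15 neighbours, resolution 1.0) leaving out 406 genes by name (the members, the other cell cycle lists, and mitochondrial, ribosomal, haemoglobin, histone, sex-linked and miR-200b locus genes) and 176 genes whose correlation with the S or G2/M list exceeded 0.4, and were named from marker lists. Naming thresholds, the correlation limit and the keratin limit of 5000 CPM for epithelial clusters were chosen in view of the data. The automatic doublet threshold of Scrublet marked 3 and 1 cells and was not used, so doublets were kept, and the 7% with the highest scores were removed as an alternative.

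Counts summed per library and class were turned into CPM, whose 95% intervals are exact Poisson ones. Ratios have exact conditional binomial intervals, shares Clopper-Pearson intervals and ratios of shares log-scale intervals. All cover counting error only, and with 1 library per group no test was possible. Classes with at least 50 cells in both libraries were compared. Shares used cells thinned to 2000 UMIs. Full values were given, in each role group, for the 3 members with the most UMIs and the 2 with the largest and the 2 with the smallest log2 ratio in epithelial cells, and of each other list for up to 2 genes at each end among those past 1.5-fold. Values of members in single classes and of paralogs or partners were added after they had been seen. The members and lists were chosen with earlier results of these data known. Alternatives were mean levels over cells, other filters, thinning depths, folds, pseudocounts and clusterings. The calculations were tested on simulated data. Coordinates and 3′ UTRs came from GENCODE M21 (GRCm38), and promoters and the microRNA from RefSeq (GRCm38.p6). Python 3.11.15, numpy 2.4.6, pandas 2.3.3, scipy 1.17.1, scikit-learn 1.9.0 and matplotlib 3.10.9 were used.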

Additional observations from a re-analysis of the deposited data

Results flagged for a closer look

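Ccnd2, cyclin D2, had log2 ratios of opposite sign in 2 cell classes. It was 0.70 in endothelial-like cells, with 169 control and 188 induced UMIs, and -2.07 in spinous-like cells, with 900 and 412 UMIs. Whether these ratios differ was not tested, as there was 1 library per group.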

How the results depend on the processing

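Of the main results, 51 values under an alternative stayed within their limits and 19 moved; of the single genes and classes, 313 stayed, 134 moved and 1, past 1.5-fold, reversed. Of all these values, 3 and 4 had the other sign: the G2/M to S difference and the S share in dermal papilla-like cells as given below, the G2/M shares without thinning in basal epidermal-like (0.10) and outer root sheath-like cells (0.061), and Ccne1 by means over cells (0.033). At 2-fold, where 2.6% of all genes were lower, 14 of 43 members were lower in place of 39, 13 genes of the other lists in place of 63, and the lists together in 5 of 9 classes. Means over cells gave summed log2 ratios of -0.78 for G2/M and -0.97 for S, and epithelial clusters with at least 50 cells of both libraries, chosen after seeing the data, -1.12 and -1.20, with an S share ratio of -1.10. The log2 ratio of S shares, -0.75 at 2000 UMIs, was -0.997 at 1000 UMIs, -0.50 at 5000 UMIs, -0.12 without thinning, -0.42 with at least 1 UMI and -0.93 with at least 3. That of G2/M shares, -0.62, was -0.22 without thinning and -0.47 with at least 1 UMI. The G2/M to S difference was 0.32 at 1000 UMIs, -0.14 at 5000 UMIs, -0.092 without thinning and -0.050 with at least 1 UMI. The share of S cells in dermal papilla-like cells turned from a log2 ratio of -1.60 to 0.20 at 1000 UMIs. The cause of these moves was not tested. Among the barcodes with the highest doublet scores, 46.1% of control and 23.5% of induced cells carried G2/M UMIs, against 19.3% and 12.2% of the others; 38 members were lower without them. UMI minimums do not enter class sums. No paired analysis was possible because the 2 groups hold 1 library each.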
